A study of Mus musculus with 4 samples.

Results

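Genes for neurotransmitter receptors and ion channels were followed across mouse embryonic stem (ES) cells and cultured forebrain neural stem cells. They were chosen by symbol: AMPA, kainate, NMDA and metabotropic glutamate receptors (Gria, Grik, Grin, Grm), GABA receptors (Gabr), nicotinic acetylcholine receptors (Chrn) and potassium, sodium, calcium and chloride channels (Kcn, Scn, Cacn, Clcn). The arrays carried 125 probe sets for 96 such genes, out of 8251 genes that had a probe set of their own. Each gene was read from its brightest probe set by mean log2 signal. For 39 genes this probe set came up to the median signal of 1 or more arrays; these are the genes described here. For the other 57 it stayed below the median on all 4 arrays.

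Total RNA of each culture was measured on its own Affymetrix MG_U74Av2 array, a chip of short oligonucleotide probes. R1, an established mouse ES cell line, was grown unattached as embryoid bodies for 48 hours (2 arrays, titled aggregation and suspension) or attached to gelatin (1 array). All R1 cultures received DMEM with LIF, a cytokine that keeps ES cells undifferentiated, and beta-mercaptoethanol. Neurospheres, which are unattached balls of dividing neural stem cells and their progeny (1 array), came from the E13.5 telencephalon and were grown in DMEM/F12 medium with FGF2. Their labels name astrocytes, other glia and oligodendrocytes as contaminating cells. Nothing states that the embryoid body arrays came from separate cultures. In the main fit, the spread behind each p-value comes from these 2 arrays alone. It is mostly pooled over features of similar signal, so it is not the gene's own difference between them. How far the 2 arrays differ may be technical or come from the culture form.

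Signals were brought to a common trimmed mean of 500 on each array and are given on that linear scale, which has no unit. Differences are between means of log2(signal + 32), which understates changes of dim genes. After scaling, the array medians were 178 in adherent cells and 225 to 242 on the other arrays, and the 10th percentiles were 17.4 and 29.5 to 33.8. No detection calls were used, so a signal below the median was not told apart from background. Marker genes went with the labels: all 7 tested pluripotency genes fell in neurospheres, and 4 of 6 tested neural progenitor genes rose. In such bulk samples, fewer cells that express a gene and less of its RNA per cell cannot be told apart.

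Ligand-gated channels open when a transmitter binds, and voltage-gated channels open when the membrane potential changes. Glutamate acting on AMPA receptors carries most fast excitation in the brain, NMDA receptors admit calcium, and GABA receptors pass chloride. Proliferating progenitors of the embryonic forebrain are known to carry AMPA, kainate and GABA receptors and potassium channels before any synapse forms. REST, a zinc finger repressor that is abundant in ES cells, silences many neuronal receptor and channel genes through a DNA element called RE1, and Gria2 is among the genes known to carry such an element.

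For Gria2, the gene whose signal differed most between the cultures, the 250 bases before the start site were read from the RefSeq promoter table (GRCm38.p6). The 30 bases at chr3:80802984-80803013 are shown because they hold the inner bases of both parts of an RE1 element. They are given 5′ to 3′ in the direction of the gene, which lies on the minus strand, and the capitals mark the match, on the opposite strand and 170 to 157 bases upstream of the start.
Gria2: ccaaagcgCTGTCCGCGGTGCTaaaatcga
The match is AGCACC, any 2 bases, then GGACAG. This search was added after the sequences had been seen. Read on either strand, it was found in 15 of 32851 promoter windows of the table, or 0.0457%. Of 97 windows belonging to 74 of the 96 genes, only the Gria2 window held it. The longer left part alone, TTCAGCACC, was in 0.301% of all windows and in 0 of the 49 windows of the 35 described genes that had any. The right part alone, GGACAG, was in 18.7% of all windows and in 11 of those 49, or 22.4%. The gene as annotated (chr3:80681450-80804227) extends 1392 bases further upstream than this start, so the site lies within the span of a longer transcript. A match in these letters is a description and does not show binding.

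The first comparison asked how receptor and channel genes differ between neural stem cells and ES cells. Gria2, Grin2c and Clcn4 rose in neurospheres by limma with Benjamini-Hochberg adjustment over 6843 features, and none of the 39 genes fell. Over all features, 8.20% were called higher and 11.9% lower. Before adjustment, p was under 0.05 for 7 of the 39 in the higher direction and 1 in the lower, against 15.4% and 17.2% of all features. In the plot of neurosphere differences by gene, the 3 called genes stand among 27 with a positive difference and 12 with a negative one. The median difference was 0.34, against 0.10 over all features. After quantile normalization 3 genes were called higher and 1, Kcnk1, lower, 23 of the 39 differences were positive, and their median was 0.12 against 0.04 over all features.

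The signal filter bears on these counts. Of the 39 genes, 18 reached the median on 1 array alone, and for 7 of those the array was neurospheres, among them Gria2 and Clcn4. Grin2c reached it on all 4 arrays. Over all 96 genes, filtered or not, the median difference was 0.30, against 0.16 over 9840 unfiltered features. After quantile normalization without the filter these medians were 0.09 and 0.02. Positive differences then made up 52.1% of the 96 genes and 50.9% of the features. Folds between arrays were counted on signal + 32. On that scale 6 of the 39 genes were at least 2-fold above every R1 array and 0 were as far below, with 9.18% of the 6843 features above and 9.37% below. Of the 96 genes, 9 were above and 0 below, with 7.88% and 6.69% of the unfiltered features. The 6 were Gria2, Grin2c, Clcn4, Gabrg1, Chrna1 and Kcnn4, and the dim genes Gria3, Gria4 and Cacna2d1 made up the 9.

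**Figure D1:**
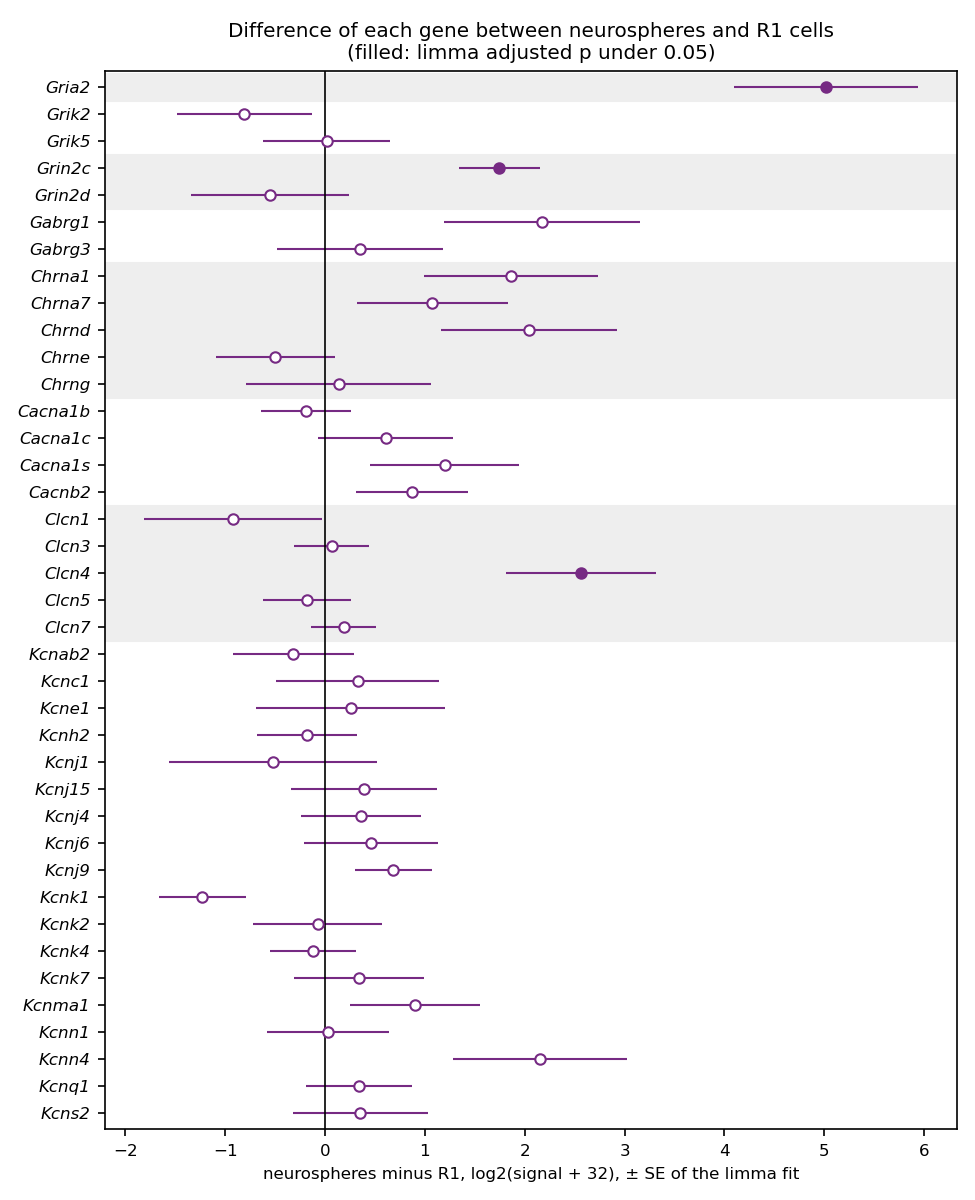
Difference in log2(signal + 32) between neurospheres and R1 cells (embryoid bodies averaged first, then averaged with adherent cells) for each of the 39 genes, grouped by family in shaded bands, with bars of 1 standard error from the limma fit. Gria2 (5.02), Clcn4 (2.56) and Grin2c (1.75) are filled because their adjusted p was under 0.05, and Kcnk1 has the most negative value (-1.23).

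Gria2 encodes the AMPA receptor subunit that, once its RNA is edited, keeps the channel closed to calcium. Its signal was 1731 in neurospheres, 21.9 and 48.9 in the aggregation and suspension embryoid bodies, and 12.7 in adherent cells. Neurospheres lay far above every R1 array, and only there did the gene pass its array median. The embryoid body mean was 35.4 ± 19.1 (SD, n = 2). The difference was 5.02 ± 0.92 (SE) on the log2 scale, with an adjusted p of 0.000606 (limma). Against embryoid bodies alone it was 4.74, and against the adherent array alone 5.30.

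The other AMPA subunit genes stayed below the array median everywhere and were left out of the main fit. Without the signal filter they were tested and not called. Gria1 had signals of 119 in neurospheres and 31.8 to 77.3 in R1 cells. For Gria3 the neurosphere signal was 169 and the R1 signals 22.7 to 50.0. For Gria4 they were 173 and 41.6 to 67.0. In each of these genes neurospheres had the highest array, and the differences were 0.91, 1.63 and 1.37 log2 units. Neurospheres were highest for 34.9% of the 9840 unfiltered features. A dimmer Gria1 probe set was instead highest in aggregation, at 40.3 against 38.4 in neurospheres.

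Kainate receptor genes gave no call. Grik2 had its highest signals in embryoid bodies, 244 and 388, against 137 in adherent cells and 105 in neurospheres, with a difference of -0.81 (adjusted p = 0.430, limma). A dimmer Grik2 probe set, below the median everywhere, was instead highest in neurospheres, at 43.2 against 17.7 to 26.4 in R1 cells. Grik5, a subunit that forms channels only together with other kainate subunits, had signals of 720, 208, 168 and 263 in aggregation, suspension, adherent cells and neurospheres. Its difference was 0.02 (adjusted p = 0.988, limma). The second Grik5 probe set did not show this order. It read 68.2, 244, 67.9 and 948 in the same samples, and with every probe set tested as its own feature its difference was 2.93 with an adjusted p of 0.00637 (limma). Which of these describes Grik5 cannot be settled from the signals.

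Among the NMDA receptor genes, Grin2c, a subunit best known from the mature cerebellum, rose. Its signal was 1427 in neurospheres, 502 and 549 in embryoid bodies (525.5 ± 33.6, SD, n = 2) and 308 in adherent cells. All 4 arrays were above their medians, and neurospheres exceeded each of the others by more than 2-fold. The difference was 1.75 ± 0.41 (SE, adjusted p = 0.00459, limma). Grin2d had signals of 210 and 310 in embryoid bodies, 65.1 in adherent cells and 82.0 in neurospheres, a pattern in which only embryoid bodies stood out, and it was not called. Grin2a and Grin2b stayed below the median, with Grin2b at 158 in neurospheres and 36.4 to 88.1 in R1 cells. The metabotropic gene on the array, Grm8, was also below it, at 133 in neurospheres and 81.3 to 172 in R1 cells.

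GABA receptor genes were mostly dim: 2 of 10, both for gamma subunits, reached the median on any array. Gabrg1 had a signal of 375 in neurospheres, 30.7 and 39.8 in embryoid bodies and 89.3 in adherent cells. Neurospheres were highest, and the difference of 2.17 ± 0.98 (SE) had an unadjusted p of 0.0396 and an adjusted p of 0.131 (limma). Gabrg3 had signals of 61.6 and 264 in aggregation and suspension, 144 in adherent cells and 186 in neurospheres. Its embryoid body arrays bracketed the other samples, and its difference was 0.35 (adjusted p = 0.801, limma).

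**Figure D2:**
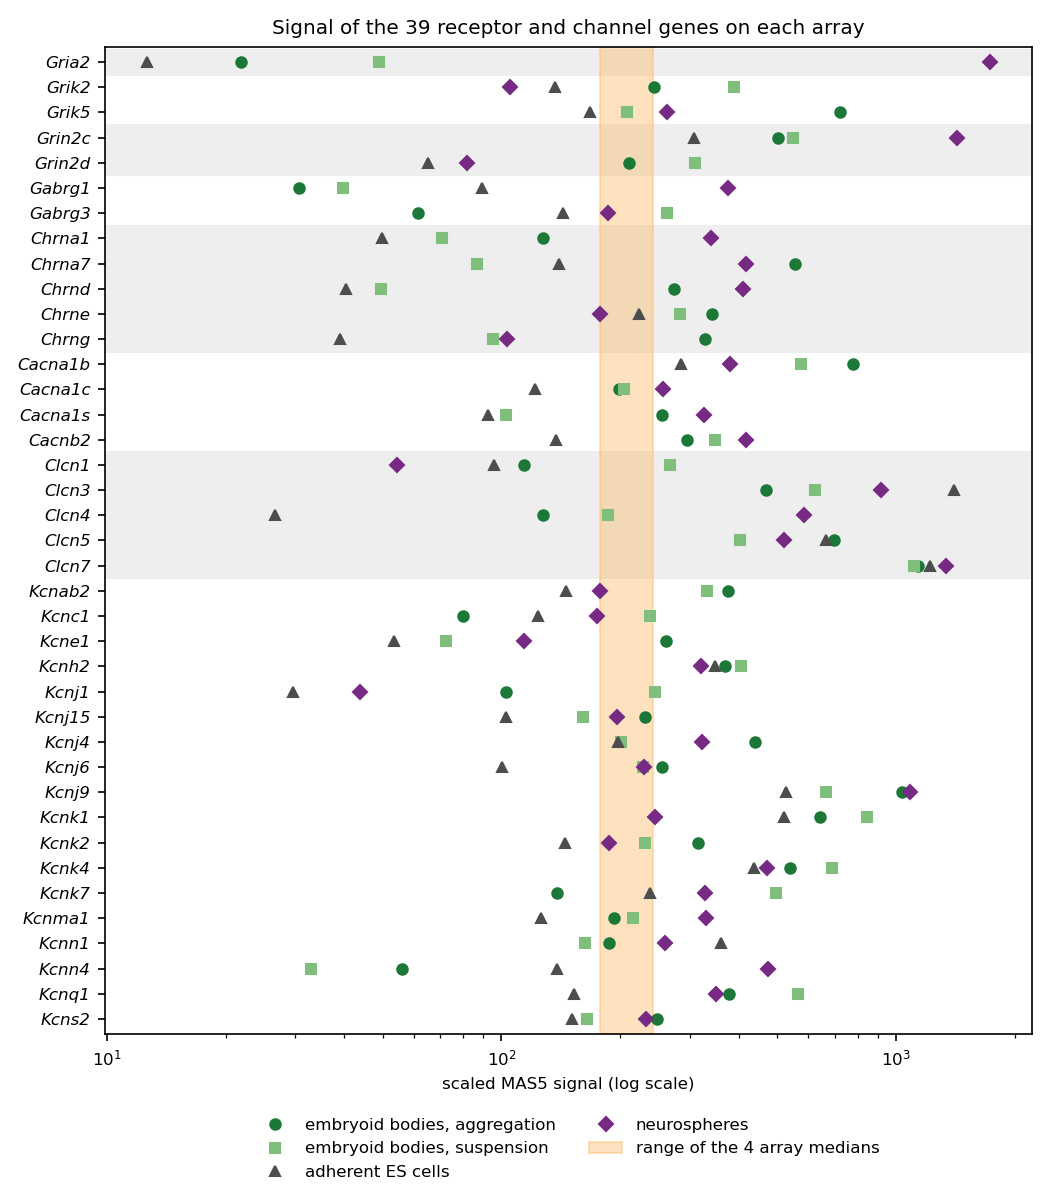
Scaled MAS5 signal (log axis) of the 39 genes on each of the 4 arrays, in family bands; the orange band spans the 4 array medians, 178 to 242. The neurosphere diamond stands far to the right of the other points for Gria2, Gabrg1 and Kcnn4, and the adherent triangle is the lowest point for 24 genes.

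Nicotinic receptors are acetylcholine-gated channels, and 4 of the 5 genes described encode subunits of the muscle type. Chrna1, its acetylcholine-binding subunit, had a signal of 340 in neurospheres, 128 and 70.9 in embryoid bodies and 49.9 in adherent cells, with a difference of 1.86 (adjusted p = 0.145, limma). Chrnd had 410 in neurospheres, with 273 and 49.6 in aggregation and suspension, and adherent cells at 40.5, with a difference of 2.05 (adjusted p = 0.114, limma). Chrng, the fetal subunit, had 328 in aggregation and 39.0 to 104 elsewhere. Its dimmer probe set, below the median everywhere, was highest in suspension, at 164 against 115 in aggregation. Chrne, the adult counterpart of Chrng, had 178 in neurospheres and 223 to 342 in R1 cells. Dimmer Chrne sets, also below the median, did not keep this order. One was highest in neurospheres, at 155 against 75.3 to 116 in R1 cells, and another in suspension, at 38.3. The gene for the homomeric alpha7 receptor of neurons, Chrna7, had 556 and 86.6 in aggregation and suspension, with adherent cells at 140 and neurospheres at 417. None of these 5 genes passed the test, and for Chrna7 the aggregation array exceeded the neurosphere array.

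Muscle markers were read beside the muscle-type subunits. Of 9 such genes, 7 were tested and 0 called in either direction, with 0 at an unadjusted p under 0.05 between neurospheres and R1 cells. Their signals summed to 3129 in neurospheres, to 2576 and 1972 in aggregation and suspension, and to 1616 in adherent cells. Myog and Myod1, regulators of muscle identity, had signals of 577 to 608 and 400 to 650 outside adherent cells, and of 221 and 193 in adherent cells. The part of muscle transcripts in the nicotinic signals was not tested.

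Potassium channels set the resting potential and end action potentials; they formed the largest family, with 18 of 42 genes described. None was called. Kcnk1, a 2-pore leak channel, came closest in the negative direction. Its signals were 641 and 843 in embryoid bodies, 519 in adherent cells and 246 in neurospheres, which were lowest. The difference of -1.23 ± 0.44 (SE) had an adjusted p of 0.0539 (limma), and it passed the threshold in 5 alternatives, among them the same fit against embryoid bodies alone (-1.47, adjusted p = 0.0318).

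Kcnn4, a calcium-activated channel of intermediate conductance, had a signal of 473 in neurospheres, 139 in adherent cells and 55.9 and 32.9 in embryoid bodies. The order was the same in both embryoid body arrays, and the difference was 2.15 ± 0.87 (SE, adjusted p = 0.0903, limma). Against embryoid bodies alone it was 2.74, with an adjusted p of 0.0441 (limma). Kcnj9, a G-protein-gated inward rectifier, had 1085 in neurospheres, 1035 and 667 in embryoid bodies and 527 in adherent cells. The highest 2 arrays were neurospheres and aggregation, and the difference was 0.69 (adjusted p = 0.229, limma). A dimmer Kcnj9 probe set was also highest in neurospheres, at 346, but lowest in aggregation. It had 130 and 177 in embryoid bodies and 215 in adherent cells. Embryoid bodies minus adherent cells was -0.42 by this set and 0.63 by the brightest. The other 15 potassium channel genes had differences from -0.52 for Kcnj1, a kidney inward rectifier, to 0.90 for Kcnma1, the large-conductance calcium-activated channel. Kcnd2, which opens A-type currents, is counted below the median because its brightest probe set was. A dimmer probe set of it reached the median in neurospheres, with signals of 308 there and 13.0 to 55.3 in R1 cells, and was not called.

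Calcium channels couple voltage to calcium entry, and 4 of 12 genes were described. Cacna1b, the pore of the N-type channel at nerve terminals, had signals of 779 and 575 in embryoid bodies, 285 in adherent cells and 381 in neurospheres. Neurospheres lay between the R1 cultures, and the difference was -0.19 (adjusted p = 0.799, limma). The L-type pores Cacna1c and Cacna1s and the auxiliary subunit Cacnb2 had their highest signals in neurospheres (257, 326 and 416) and differences of 0.61, 1.20 and 0.87, none called. Cacna2d1, an auxiliary subunit below the median everywhere, had a signal of 212 in neurospheres and 20.8 to 32.9 in R1 cells, and was called only when no signal filter was used. None of the 6 sodium channel genes reached the median. The one with the highest mean, Scn1a, had 137 in neurospheres and 6.03 in adherent cells, with 148 and 115 in embryoid bodies. By a dimmer Scn1a probe set, also below the median everywhere, neurospheres were highest, at 113 against 8.42 to 21.2 in R1 cells. The difference was 1.72 by that set and 1.10 by the brightest.

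The chloride channel family also holds chloride-proton exchangers of endosomes and lysosomes, and 5 of its 6 genes were described. Clcn4, an endosomal exchanger (chr7:7282309-7300916), rose: its signal was 585 in neurospheres, 127 and 187 in embryoid bodies (157 ± 42.0, SD, n = 2) and 26.6 in adherent cells. The R1 cultures themselves were spread, with adherent cells lowest. The difference was 2.56 ± 0.75 (SE, adjusted p = 0.0207, limma). Against embryoid bodies alone, in the same fit, it was 1.72 (adjusted p = 0.153) and against adherent cells alone 3.40 (adjusted p = 0.0135). With all R1 arrays as a single group the call was lost (2.28, adjusted p = 0.0780). Within that form it was 1.72 (adjusted p = 0.0794) without the adherent array, 2.45 (0.101) without aggregation and 2.67 (0.0490) without suspension. Clcn7, of lysosomes, had similar signals on every array by its brightest probe set, 1111 to 1221 in R1 cells and 1340 in neurospheres. The difference was 0.19 (adjusted p = 0.722, limma). Its dimmer set had 85.1 and 167 in embryoid bodies, 271 in adherent cells and 257 in neurospheres. Clcn1, the chloride channel of skeletal muscle, Clcn3 and Clcn5 had differences of -0.92, 0.07 and -0.18. Their dimmer sets gave 0.43 for Clcn1, 0.87, -0.68 and -0.57 for Clcn3, and 0.84 for Clcn5.

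Of the 39 genes, 16 had more than 1 probe set, and the sets of a gene did not always order the cultures alike. Affymetrix names plain sets _at, sets with relaxed probe selection _r_at, and sets that can match several transcripts or a gene family _s_at, _g_at or _f_at; 11 of the 39 genes were read from sets other than plain. Gria2 was read from an _s_at set. Its plain _at set, dimmer and below the median, had 190 in neurospheres and 12.8 to 14.7 in R1 cells, a difference of 2.28. An _f_at set had 83.7 against 9.20 to 45.7, and an _r_at set had its highest signal, 46.9, in aggregation. Both Clcn4 sets are plain, and the dimmer had 532 in neurospheres and 16.0 to 128 in R1 cells, with a difference of 3.07 and an adjusted p of 0.0368 when every probe set was its own feature (limma). Kcnab2, a potassium channel beta subunit, was lower in neurospheres (178) than in embryoid bodies (376 and 331) by its _f_at set. By its plain set it was higher, at 319 against 159 and 200.

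**Figure D3:**
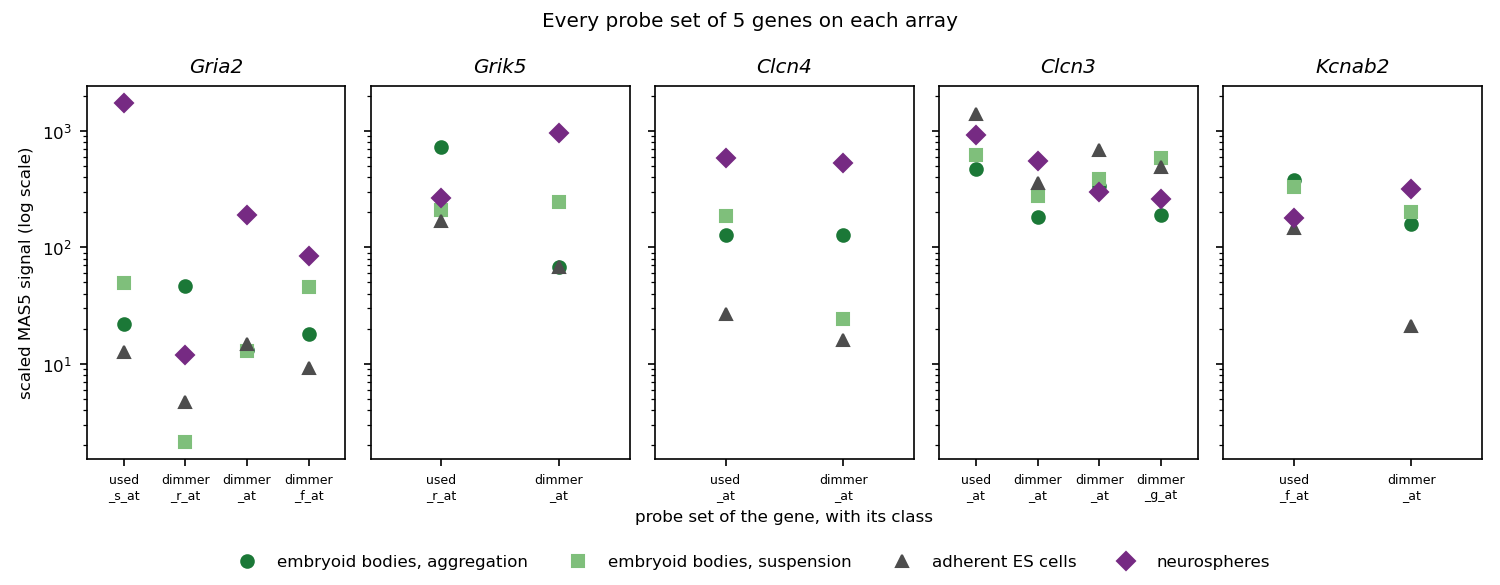
Scaled MAS5 signal (log axis) of every probe set of 5 genes on the 4 arrays, the set used for the gene on the left of each panel. Neurospheres are highest in both Clcn4 sets and in 3 of 4 Gria2 sets, whereas the Grik5 and Kcnab2 sets place neurospheres differently.

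The second comparison asked how floating culture as embryoid bodies differs from adherent culture. It shares its R1 arrays with the first. None of the 39 genes was called in either direction, against 0.263% of all features higher and 0.0877% lower in embryoid bodies. Without adjustment, 3 had p under 0.05 and were higher and 1 was lower, against 14.4% of all features in either direction. Cacna1b was higher by 1.14 (unadjusted p = 0.0261), Clcn4 by 1.67 (0.0472) and Kcnq1, a voltage-gated channel of heart and ear, by 1.42 (0.0195). Clcn3, an endosomal exchanger, had 469 and 623 in embryoid bodies, below the 1402 of adherent cells. Its difference was -1.32 ± 0.39 (SE, adjusted p = 0.155, limma), and the differences of its 3 dimmer probe sets were -0.60, -0.86 and -0.49.

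Adherent cells had the lowest signal for 24 of the 39 genes (61.5%), against 33.3% of all features. Without the filter the shares were 66.7% of the 96 genes and 41.4% of 9840 features. The embryoid body mean was higher for 32 genes and lower for 7, with a median difference of 0.63, against 0.10 over all features. The adherent array also had the lowest median and 10th percentile of the 4 arrays. After quantile normalization, which gives all arrays the same distribution, 29 of 39 differences were positive, with a median of 0.36 against 0.00 over all features. The share with the adherent array lowest was then 30.0% of the 40 genes in that fit, Kcnd2 included, against 26.6% of all features. In the plot of embryoid body differences, the means of the 9 genes above the median on all arrays run from -1.32 for Clcn3 to 1.14 for Cacna1b.

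**Figure D4:**
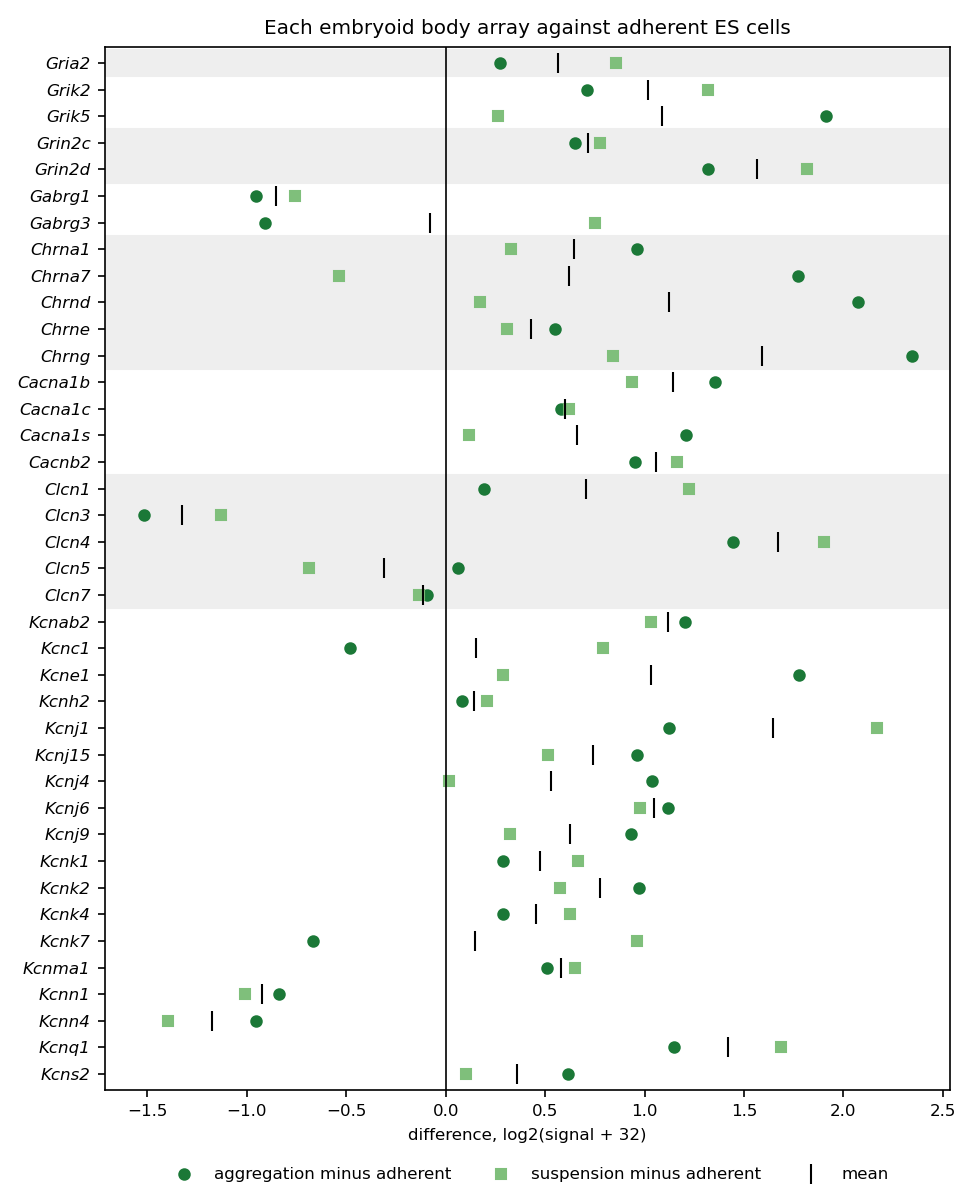
Difference in log2(signal + 32) of each embryoid body array from the adherent array for the 39 genes, with a bar at their mean. The mean is above 0 for 32 genes; Clcn3 has the most negative mean (-1.32), and Chrna7, Gabrg3, Kcnc1, Kcnk7 and Clcn5 have arrays on opposite sides of 0.

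On signal + 32, the aggregation and suspension arrays were at least 2-fold apart for 12 of the 39 genes, 7 higher in aggregation and 5 in suspension, against 14.3% of all features. With 1 array each there is no test. The 2 arrays also came on different deposited scales. Aggregation (trimmed mean 32.5) was near neurospheres (29.5), and suspension (1485) was near adherent cells (1490). This split runs across the embryoid body pair and both comparisons, and its part in the differences was not tested. Aggregation was higher by 2.31 log2 units for Chrna7, 1.90 for Chrnd and 1.65 for Grik5. Suspension was higher for Gabrg3 (-1.66 for aggregation minus suspension), for Kcnk7 (-1.63), with signals of 139 in aggregation and 496 in suspension, and for Kcnc1 (-1.27), a fast-closing voltage-gated potassium channel, with 79.8 and 238. Kcnc1 and Kcnj15 lay just inside the signal filter, at 1.01 and 1.03 times the array median on their best array. Kcns1 and Chrna6 lay just outside, at 0.967 and 0.969 times.

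Other genes of transmission and excitability were read from the same fit. Over all its features, 8.20% were called higher in neurospheres and 11.9% lower. Without adjustment the shares were 15.4% and 17.2%. Of 7 tested ionotropic receptor genes outside the chosen symbols, 0 were called, 2 were higher and 0 lower by unadjusted p (threshold 0.05), and the median difference was 0.93. These 2 were Grid1, a delta-type glutamate receptor, and Glrb, the glycine receptor beta subunit. Glrb had 667 in neurospheres and 179 to 328 in R1 cells (adjusted p = 0.0651, limma). Of 10 tested G-protein-coupled receptors for serotonin, dopamine, acetylcholine and noradrenaline, 0 were called and 0 passed the unadjusted threshold, with a median of 0.35.

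Of 14 tested genes that anchor or traffic receptors, 3 rose and 0 fell, against 8.20% and 11.9% of all features. Camk2b, a calcium-dependent kinase subunit of synapses, had a signal of 2735 in neurospheres, 62.8 and 116 in embryoid bodies and 240 in adherent cells, a difference of 3.95 ± 0.57 (SE, adjusted p = 5.08e-05, limma). Gabarapl1 and Gabarap, relatives that bind GABA receptors and act in autophagy, rose by 1.26 and 1.04, and these calls were lost in 7 and 6 of 16 alternatives. Of 10 transmitter synthesis and transport genes, Slc6a9, a glycine transporter, rose by 1.19 and none fell. Of 16 channel genes outside the chosen symbols, Itpr2, a calcium release channel of the endoplasmic reticulum, rose by 2.43 and Gja1, a gap junction subunit, fell by 1.39. The calls were lost in 4 of 16 alternatives for Slc6a9, 9 of 14 for Itpr2 and 4 of 15 for Gja1. Of 12 ion pumps and exchangers, Slc12a7, a potassium-chloride cotransporter, fell by 2.88 and none rose. Between embryoid bodies and adherent cells, 0 genes of these lists or of the REST list were called by limma. The shares over all features were 0.263% higher and 0.0877% lower. An unadjusted p under 0.05 was found for 0 to 3 genes per list, against 14.4% of all features.

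Of 8 tested genes for REST and its partners, 2 fell in neurospheres and 0 rose, against 11.9% and 8.20% of all features. Rest had signals of 2535 and 1888 in embryoid bodies, 3604 in adherent cells and 242 in neurospheres. The R1 arrays were all far above the neurosphere array, and the difference was -3.37 ± 0.32 (SE, adjusted p = 4.12e-07, limma). Hdac1, a histone deacetylase of several repressor complexes, had 1797 and 1515, 2262 and 426 in the same order, a difference of -2.10 ± 0.32 (SE, adjusted p = 1.06e-04, limma). Both calls held in all 16 alternatives. The other 6 genes had differences from -0.95 for Sin3a to 0.53 for Kdm1a, none called. Of the 39 receptor and channel genes, 3 rose on the array on which Rest was low and 36 were not called; a relation to Rest was not tested.

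**Figure D5:**
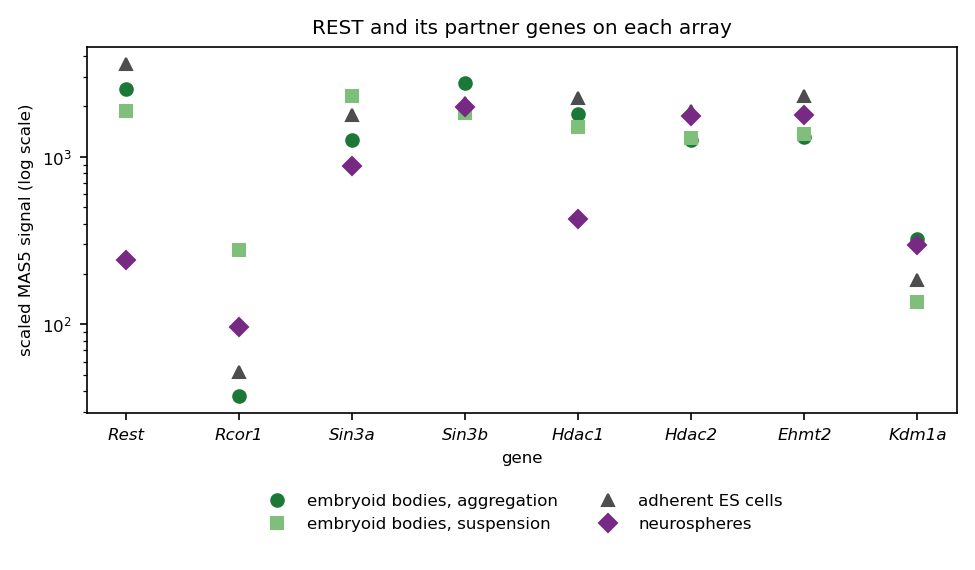
Scaled MAS5 signal (log axis) of Rest and 7 genes for proteins that act with it on the 4 arrays. The neurosphere diamond is far below the R1 points for Rest (242 against 1888 to 3604) and Hdac1 (426 against 1515 to 2262), and lies among or near them for the other genes.

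Markers of the cell types that a neurosphere culture could hold were read beside the called genes. Over all features, 8.20% were called higher and 11.9% lower. Of 10 neuronal markers on the array, 6 were tested. Gap43, a growth cone protein, rose and Stmn2 fell. By unadjusted p under 0.05 (limma), 4 of the 6 were higher and 1 lower, against 15.4% and 17.2% of all features. Their median difference was 1.41. Map2 had 467 in neurospheres and 12.1 to 32.2 in R1 cells (adjusted p = 0.0535, limma). For Dcx these were 467 and 38.3 to 183 (adjusted p = 0.0544, limma). The summed signal of the 6 was 8358 in neurospheres, with 5991 from Tubb3, and 4851 to 6749 in R1 cells. Of 3 tested astrocyte markers Aldoc rose, with sums of 4914 (4279 from Aldoc) and 251 to 1039. Of 4 tested oligodendrocyte lineage markers Sox10 rose, with sums of 2200 (1210 from Sox10) and 753 to 1689. Of 2 microglial and 3 endothelial markers, 1 of each fell (Cd68 and Eng) and 0 rose. No tested marker of these lists was at 0 on any array. Without detection calls this does not show that a cell type was present. The part of any of these cell types in the signals of Gria2, Grin2c and Clcn4 was not tested.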

How the data were processed

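The deposited table holds the signal intensity of 12488 probe sets on 4 arrays, computed by the authors with MAS5 per the submitters' processing notes. The sources used here do not give its version or settings. MAS5 combines perfect-match and mismatch probes. The deposited intensities lay on different scales, with trimmed means of 32.5 (aggregation), 1485 (suspension), 29.5 (neurospheres) and 1490 (adherent). Leaving out 66 control probe sets, all arrays were brought to 500 by their trimmed mean (2% left out at each end), and 32 was added before log2.

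Platform annotation paired 10833 probe sets with 1 gene, 396 with several and 1193 with none. Probe sets at or above the array median on at least 1 array were kept (8031), and the brightest per gene gave 6843 features, 6002 of them named genes. A 3-group model was fitted with limma 3.58.1 (R 4.3.3), with empirical Bayes moderation and an intensity trend. Residual degrees of freedom were 1, from the embryoid body arrays, and prior degrees of freedom 17.34; neurospheres and adherent cells, with 1 array each, were taken to vary as much as those. P-values were two-sided, Benjamini-Hochberg adjusted over all features, with a threshold of 0.05. The code was tested on simulated data.

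The members, gene lists and tests were chosen with earlier results of these data known. By rule, the text names called genes, all Gria genes, the highest mean of each family, the 3 largest differences each way between embryoid body arrays, genes beside the filter and up to 4 called genes per list; other genes were named after their values were seen. Alternatives changed the added value, normalization, filter, variance trend, choice of probe set, reference group and arrays included. The number of arrays limits the precision.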

Additional observations from a re-analysis of the deposited data

How the results depend on the processing

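Gria2 and Grin2c kept a positive difference in every alternative that tested them: 3.89 to 6.33 in 14 for Gria2, all called, and 1.39 to 2.10 in 16 for Grin2c, called in all but the fit without an intensity trend (adjusted p = 0.0660, limma). Clcn4 stayed positive in 15 (1.72 to 3.40) and was not called against embryoid bodies alone (1.72, adjusted p = 0.153), in the 2-group fit of all arrays (2.28, adjusted p = 0.0780), or in that 2-group fit without the aggregation array (2.45) or the adherent array (1.72); it was called there without suspension (2.67). The count of genes called higher was 1 with the filter set on the mean over arrays, where 19 genes were tested and Gria2 and Clcn4 were not among them, and 2 to 3 with each R1 array left out in turn, in the 2-group fit that gave 2 with all arrays. The count of genes called lower was 1, Kcnk1, with quantile normalization, the filter on the mean, plain probe sets alone, embryoid bodies alone as reference, or the 2-group fit without the adherent array; with R1 arrays left out in turn it was 0 to 1. With plain probe sets Grik5 was called (2.93) and Gria2 was not tested; without an intensity trend Gabrg1 and Kcnd2 were called; without a filter Cacna2d1 was. Treating every probe set as its own feature, choosing the brightest set before the filter and keeping controls in the scaling were alternatives added after the data were seen; the first gave 4 genes higher (Gria2, Grin2c, Clcn4 and Grik5), and the others 3. Between embryoid bodies and adherent cells 0 genes were called in every alternative that was tested. Signals below the array median, which include all R1 signals of Gria2, could not be ordered with confidence.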

Other observations

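The 9 genes that reached the array median on all 4 arrays were Cacna1b, Clcn3, Clcn5, Clcn7, Grin2c, Kcnh2, Kcnj9, Kcnk1 and Kcnk4. They hold 3 transporters of intracellular membranes (Clcn3, Clcn5 and Clcn7) and a pair of leak channels (Kcnk1 and Kcnk4). Kcnh2, the rapid delayed rectifier of the heart, had signals of 369 and 406 in embryoid bodies, 347 in adherent cells and 321 in neurospheres, with a difference of -0.18 ± 0.50 (SE). Kcnk4 had 540 and 691, 437 and 473 in the same order, with a difference of -0.12 ± 0.43 (SE). Clcn5 had 698 and 402, 666 and 521, so that its embryoid body arrays lay further apart than adherent cells and neurospheres did.

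Hcn2, a pacemaker channel of heart and brain outside the chosen symbols, had the smallest unadjusted p among the 16 channel genes of its list between embryoid bodies and adherent cells. Its signals were 3887 in aggregation and 4131 in suspension, against 1732 in adherent cells and 2519 in neurospheres. The difference between embryoid bodies and adherent cells was 1.20 ± 0.29 (SE), with an unadjusted p of 0.000528 and an adjusted p of 0.0781 (limma), so it was not called. P2rx1, an ATP-gated channel, had 583 and 529 in embryoid bodies, 153 in adherent cells and 355 in neurospheres, with an adjusted p of 0.177 (limma) for the same contrast.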
